A study of Mus musculus with 8 samples.

Results

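Tenascin C, the chondroitin sulphate proteoglycans and the hyaluronan synthases build much of the matrix around embryonic neural stem cells. The genes described here were listed by name for what they encode: the tenascin gene Tnc, the proteoglycan genes Ptprz1, Bcan, Ncan, Vcan, Cspg4 and Cspg5, the link protein gene Hapln1 and the hyaluronan synthase genes Has1 and Has2. Of these 10 genes, 9 were found among the 15538 measured genes, and Hapln1 was not analysed here. They were described across 8 bulk RNA-seq libraries of primary neurospheres, which are floating clusters of neural stem cells cultured from embryonic mouse brain. The labels give 4 libraries as wild type (Phf23+/+) and 4 as Phf23-/-. Phf23 encodes a plant homeodomain finger protein. The labels name no treatment, no transgene or Cre driver, and strain, stage of the embryos and days in culture are not stated there. Libraries are called wild type 1 to 4 and knockout 1 to 4 after their labels. The labels do not say whether the replicates were separate embryos or cultures, and p-values cover the variation among these libraries alone, which may be technical.

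Tenascin C is a large, multi-armed glycoprotein of the matrix of the ventricular zone and other germinal zones, where it binds integrins, cell adhesion molecules and proteoglycans. The lecticans brevican, neurocan and versican are core proteins that carry chondroitin sulphate chains, bind hyaluronan at one end and tenascins at the other, and are held to hyaluronan by link proteins. Ptprz1 is a receptor tyrosine phosphatase that itself carries chondroitin sulphate, is also made as the secreted proteoglycan phosphacan, and binds tenascin C and pleiotrophin. Hyaluronan, the long sugar polymer that the lecticans bind, is made at the plasma membrane by the hyaluronan synthases.

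The deposited unit was normalised reads, gene counts divided by 1 size factor per library. Depth ran from 15647304 to 18241215 reads for wild type and from 18099114 to 19462516 for Phf23-/-, by label (two-sided exact permutation p = 0.114). Phf23 itself went against the labels. Its normalised reads were 720.4, 766, 788 and 919 across wild type 1 to 4 and 1607, 1528, 1429 and 1361 across knockout 1 to 4, higher in every library labelled Phf23-/- (log2 fold change 0.89, FDR = 0.000581). Whether these reads come from outside an altered part of the gene cannot be seen in gene totals, so every direction below is one between labels. The libraries also differed by transcript length. The slope of a library's log2 values on log2 length, relative to the mean of all libraries, was 0.26, 0.20, 0.08 and 0.06 across wild type 1 to 4 and -0.24, -0.31, -0.09 and 0.04 across knockout 1 to 4 (p = 0.0286 by a two-sided exact permutation test, the lowest value 4 against 4 can reach). Every library labelled wild type had a higher slope than every one labelled Phf23-/-, so a fit with the slope as covariate cannot fully separate slope from label. The matrix genes are long, with a median longest transcript of 7195 nt against 3318 nt over all genes. Fits with this length trend taken out are given where they end a call or move a member's value. The fit with the slope as covariate is not given for every gene whose call it ends.

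Tnc, Ptprz1, Vcan and Cspg4 were lower in the libraries labelled Phf23-/- and Bcan and Cspg5 were higher, while Ncan and Has2 did not pass the test. Has1, with 30 reads against 2, reached the table through the libraries in which it was higher, since the lowest gene total there was 11 reads. For that reason Has1 is left out of the counts here. Of the other 8 genes, 6 passed at an adjusted p under 0.05 (FDR, limma-trend with Benjamini-Hochberg adjustment over all 15538 genes), where 29.6% of all genes passed, 14.8% higher and 14.8% lower. The groups did not overlap for 5 of the 8 genes, against 27.7% of all genes. The median log2 fold change of the 8 genes was -0.67, against 0.00055 over all genes. After subtraction of a loess trend on transcript length and GC content from each library, 3 of 8 genes passed, Cspg5 higher and Tnc and Cspg4 lower. Of all genes 18.2% passed there, 10.4% higher and 7.79% lower, and the median of the 8 genes was -0.14. That trend used longest transcripts. When the trend used each gene's median coding transcript, Vcan passed as lower too (FDR = 0.0198), where 21.7% of all genes passed. Without the 4 libraries of steepest slope (wild type 1 and 2, knockout 1 and 2), only Tnc and Cspg4 of the 8 passed, both lower, where 9.15% of all genes passed, 4.61% higher and 4.54% lower. As a share of all reads, the 9 genes took 0.629% to 0.695% in the libraries labelled wild type and 0.431% to 0.609% in those labelled Phf23-/-. In bulk libraries, fewer cells of a type and less RNA per cell cannot be told apart.

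**Figure D1:**
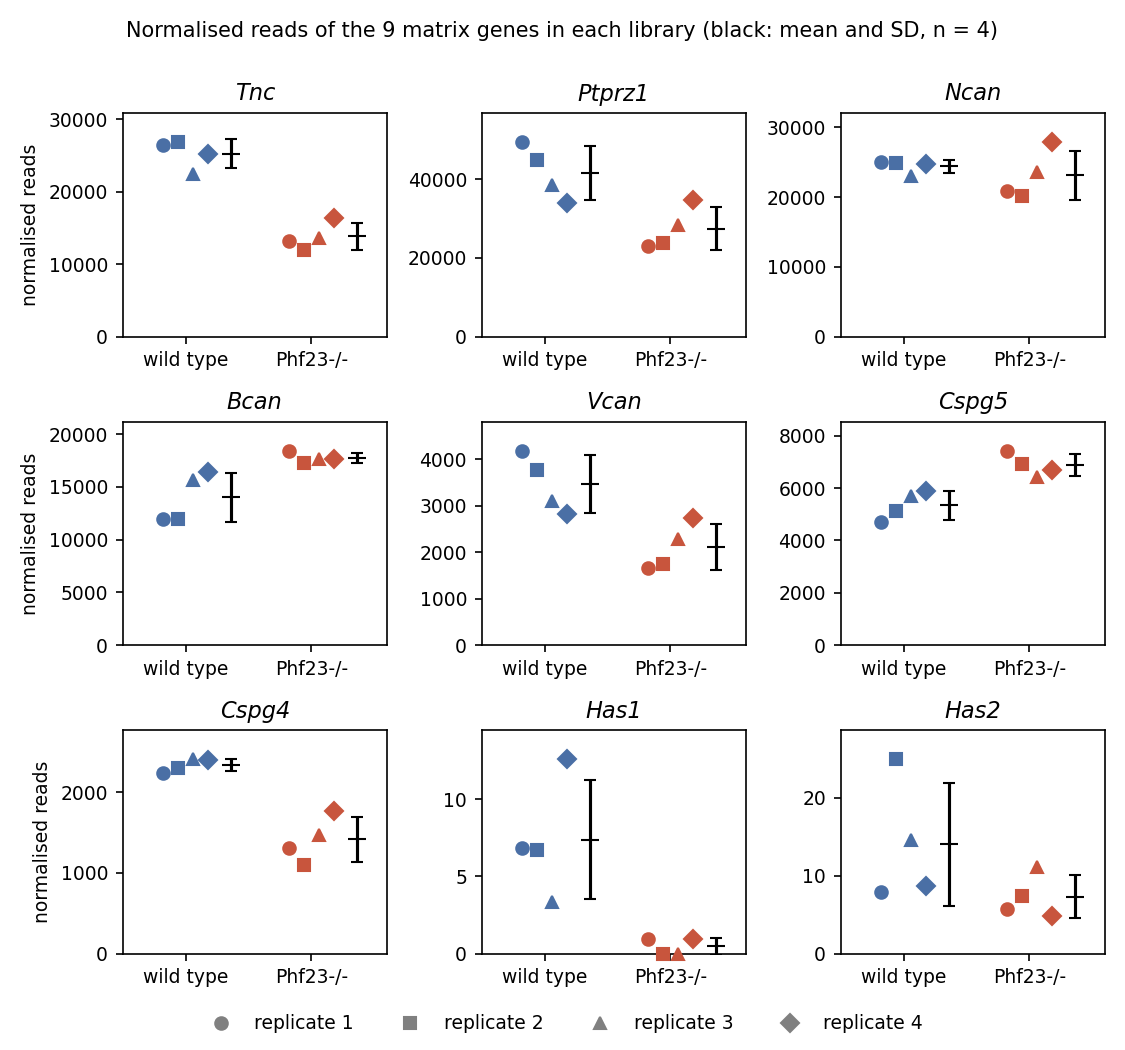
Normalised reads (y axis, from 0, 1 panel per gene) of the 9 matrix genes in each library, by label on the x axis; marker shape gives the replicate number and black marks the mean and SD (n = 4). Tnc sits between 22442 and 26867 in the libraries labelled wild type and between 12030.5 and 16369 in those labelled Phf23-/-, while Ncan overlaps.

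To show the sequence around the start sites of these genes, windows from 250 bases before to 50 after the start were taken from RefSeq (GRCm38.p6), which held 7 of the 9 genes (none for Cspg5 and Has2). The 5 printed are those of Tnc and Cspg4, the genes that passed under the most settings, of Ptprz1 and Vcan, which passed as lower as deposited but not after the trend on longest transcripts was taken out, and of Bcan, which passed as higher. Capitals mark CANNTG, the E-box letters (a palindrome, read alike on both strands), and GGGCGG or its reverse complement CCGCCC, the GC-box letters; no match of one motif overlaps a match of the other in these windows. Tnc has 2 windows in the table, from different start sites; the upstream one is printed. Sequences run 5′ to 3′ on the gene's strand.

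Tnc, chr4:64046966-64047265, minus strand: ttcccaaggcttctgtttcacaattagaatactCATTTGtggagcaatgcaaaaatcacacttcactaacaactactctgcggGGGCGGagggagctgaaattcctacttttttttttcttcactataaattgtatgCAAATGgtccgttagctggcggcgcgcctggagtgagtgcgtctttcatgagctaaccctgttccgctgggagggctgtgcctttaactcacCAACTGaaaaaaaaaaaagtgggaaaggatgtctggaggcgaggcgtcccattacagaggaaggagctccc

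Cspg4, chr9:56864854-56865153, plus strand: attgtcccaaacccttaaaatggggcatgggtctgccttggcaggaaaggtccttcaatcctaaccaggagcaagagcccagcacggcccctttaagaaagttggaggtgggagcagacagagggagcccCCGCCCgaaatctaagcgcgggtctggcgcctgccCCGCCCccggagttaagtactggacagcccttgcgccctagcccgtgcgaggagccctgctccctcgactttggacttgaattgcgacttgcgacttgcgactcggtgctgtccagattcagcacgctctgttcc

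Ptprz1, chr6:22875252-22875551, plus strand: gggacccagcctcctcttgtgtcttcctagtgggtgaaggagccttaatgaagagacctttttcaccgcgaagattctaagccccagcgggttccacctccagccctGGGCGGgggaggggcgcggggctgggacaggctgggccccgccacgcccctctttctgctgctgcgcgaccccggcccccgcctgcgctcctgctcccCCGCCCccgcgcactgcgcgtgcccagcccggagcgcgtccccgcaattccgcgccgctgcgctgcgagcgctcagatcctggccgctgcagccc

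Vcan, chr13:89742463-89742762, minus strand: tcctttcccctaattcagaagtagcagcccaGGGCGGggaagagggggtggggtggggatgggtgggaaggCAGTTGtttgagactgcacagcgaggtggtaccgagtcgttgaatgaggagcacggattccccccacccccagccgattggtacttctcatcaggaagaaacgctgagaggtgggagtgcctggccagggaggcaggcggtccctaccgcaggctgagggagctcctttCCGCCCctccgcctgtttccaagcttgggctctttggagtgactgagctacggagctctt

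Bcan, chr3:88000307-88000606, minus strand: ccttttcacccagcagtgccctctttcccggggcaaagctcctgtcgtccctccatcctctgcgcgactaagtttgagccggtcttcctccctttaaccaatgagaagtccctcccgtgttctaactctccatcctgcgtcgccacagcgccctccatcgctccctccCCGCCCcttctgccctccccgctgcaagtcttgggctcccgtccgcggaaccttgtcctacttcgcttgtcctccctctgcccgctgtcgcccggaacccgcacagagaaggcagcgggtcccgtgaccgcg

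The printed Tnc window held 3 CANNTG matches and the Vcan window 1, while the Cspg4, Ptprz1 and Bcan windows held 0; of all 32544 windows of this length, 72.3% held at least 1. The downstream Tnc window held 2. Both Has1 (2 matches) and Ncan (4 matches) also held it. The GC-box letters GGGCGG on either strand were found 1 time each in Tnc and Bcan and 2 times each in Cspg4, Ptprz1 and Vcan, against 35.9% of all windows with at least 1. The window of Ptprz1 had the highest GC content of the 5 (71.7%, with 29 CpG) and the printed one of Tnc the lowest (47.3%, with 10 CpG; 54.0% and 16 CpG in the downstream window).

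Tnc was the member with the smallest adjusted p. The gene lies at chr4:63959785-64047015, minus strand (mm10 throughout), and its longest annotated transcript is 7106 nt. Wild type 1 to 4 held 26509, 26867, 22442 and 25190.2 normalised reads, and knockout 1 to 4 held 13284, 12030.5, 13664 and 16369. All 4 libraries labelled Phf23-/- lay below all 4 labelled wild type, and the gap between the groups, from 16369 to 22442, was wider than either group's SD. The mean fell from 25252 ± 2007 to 13837 ± 1827 (SD, n = 4 each), 1.82-fold (log2 fold change -0.87 ± 0.115 (SE), 95% interval -1.12 to -0.62, FDR = 0.000968).

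The fall of Tnc was smaller with the length trend taken out and still passed (log2 fold change -0.56, FDR = 0.000121). It passed as well with the length slope as a covariate (log2 fold change -0.55, FDR = 0.02001), where 1.09% of all genes passed, 0.656% higher and 0.438% lower, and no other of the 9 genes did. Without the 4 libraries of steepest slope it was -0.67 (FDR = 1.83e-07). That fit holds only wild type 3 and 4 and knockout 3 and 4, so its FDR rests on few libraries. Over the 22 other settings and left-out libraries, the log2 fold change of Tnc ran from -0.96 to -0.52 and passed in each. A non-coding transcript on the opposite strand, 8030451A03Rik, shares 176 exon bases with Tnc, and how the authors assigned such reads is not known from the labels.

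The 5 genes whose profile over the 8 libraries was nearest to that of Tnc, among 10767 genes whose mean reached 100 normalised reads, were Acot11, Cp, Pot1b, Ppp2r2c and Slc7a11. Nearness was the root mean square difference of log2 values, each centred on its mean over the 8 libraries, and it was 0.0531 for Acot11, which encodes an acyl-CoA thioesterase, and 0.0688 for Cp, the ceruloplasmin gene. It was 0.0730 for Pot1b, a telomere-binding protein gene, 0.0799 for Ppp2r2c, a regulatory subunit of protein phosphatase 2A, and 0.0850 for Slc7a11, the cystine transporter. Of the proteoglycan genes described here, the nearest to Tnc was Cspg4, at place 67 (0.136). Vcan came at place 377, Ptprz1 at 462, Ncan at 3743, Cspg5 at 8210 and Bcan at 8311.

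Ptprz1, the receptor phosphatase that carries chondroitin sulphate, was lower on average in the libraries labelled Phf23-/- (chr6:22875502-23052916, plus strand, longest transcript 8068 nt). Its values were 49372, 44899, 38428 and 33889.5 across wild type 1 to 4 and 22950.2, 23789, 28299 and 34724 across knockout 1 to 4. The groups overlapped, since knockout 4 lay above wild type 4. Reads were highest in wild type 1, the library of the highest length slope, and lowest in knockout 1 and 2, those of the lowest slopes. The mean fell from 41647 ± 6851 to 27441 ± 5394, 1.52-fold (log2 fold change -0.61 ± 0.154 (SE), 95% interval -0.94 to -0.27, FDR = 0.0144). The call was lost with the length trend taken out (log2 fold change -0.13, FDR = 0.183), with the slope as covariate (log2 fold change -0.03, FDR = 0.949) and without wild type 1, wild type 2 or knockout 1 (FDR = 0.0512, 0.0521 and 0.0567).

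Of the lecticans, brevican reads were higher in the libraries labelled Phf23-/-, versican reads were lower, and neurocan reads did not pass the test. For Bcan (chr3:87987531-88000230, minus strand), wild type 1 to 4 held 11968, 11969.5, 15661 and 16397 normalised reads and knockout 1 to 4 held 18436, 17256, 17689 and 17645. The groups did not overlap, although wild type 3 and 4 lay nearer to the libraries labelled Phf23-/- than to wild type 1 and 2. Bcan rose from 13999 ± 2363 to 17757 ± 493, 1.27-fold (log2 fold change 0.36 ± 0.121 (SE), 95% interval 0.10 to 0.62, FDR = 0.0417). It did not pass with the length trend taken out (log2 fold change 0.10, FDR = 0.258), was -0.10 (FDR = 0.373) when the trend used each gene's median coding transcript, and did not pass when any 1 of wild type 1, wild type 2 or knockout 1 to 3 was left out (FDR from 0.0537 to 0.143) or when only library size was scaled (log2 fold change 0.30, FDR = 0.0900).

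Ncan (chr8:70093085-70120873, minus strand) held 24999.6, 24866, 23040.5 and 24787 normalised reads across wild type 1 to 4, and 20871, 20130.2, 23574 and 27862 across knockout 1 to 4. Knockout 1 and 2 lay below and knockout 4 above every library labelled wild type, so the groups overlapped. The means were 24423 ± 926 and 23109 ± 3497, and the interval of the difference included 0 (log2 fold change -0.09 ± 0.116 (SE), 95% interval -0.34 to 0.16, FDR = 0.588). The value changed sign with the length trend taken out and did not pass there (log2 fold change 0.18, FDR = 0.0593).

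Vcan (chr13:89655312-89742509, minus strand) has the longest transcript of the 9 genes, 12427 nt. Its normalised reads were 4190.0, 3763, 3097 and 2820.3 across wild type 1 to 4 and 1668, 1753, 2287 and 2741 across knockout 1 to 4, without overlap but with knockout 4 and wild type 4 close together. The mean fell from 3468 ± 623 to 2112 ± 501, 1.64-fold (log2 fold change -0.73 ± 0.167 (SE), 95% interval -1.09 to -0.37, FDR = 0.0104), and it passed in all 8 fits that omit 1 library. Once the trend on the longest transcript was taken out, Vcan did not pass (log2 fold change -0.15, FDR = 0.147), with the median coding transcript it did (log2 fold change -0.56, FDR = 0.0198), and with the slope as covariate it did not (log2 fold change -0.05, FDR = 0.929).

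Per length, the makeup of the lectican reads differed between the labels for versican. Vcan took 4.32%, 3.91%, 2.95% and 2.54% of the 3 genes' summed reads per kilobase across wild type 1 to 4, and 1.53%, 1.69%, 2.03% and 2.26% across knockout 1 to 4, without overlap. Brevican took 43.9%, 44.2%, 53.0% and 52.6% across wild type 1 to 4 and 60.1%, 59.3%, 55.9% and 51.7% across knockout 1 to 4, so that knockout 4 lay within the range of the libraries labelled wild type. Neurocan made up most of the rest, from 44.0% to 51.9% and from 38.4% to 46.1%. Division by a fixed length leaves the length slope of each library in these shares. The annotated exons come to 14462 nt for Vcan and 4064 nt for Bcan, and the part of the slope in the shares was not tested.

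**Figure D2:**
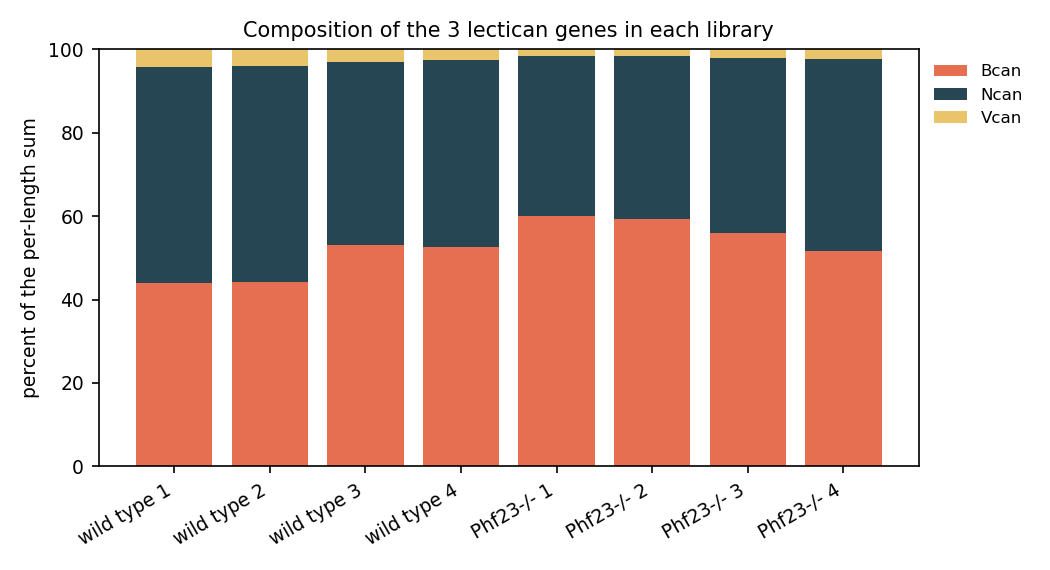
Percent of the summed reads per kilobase of Bcan, Ncan and Vcan (y axis, 0 to 100) in each of the 8 libraries (x axis); each stacked bar is 1 library. The Vcan segment is 2.54% to 4.32% in the libraries labelled wild type and 1.53% to 2.26% in those labelled Phf23-/-. The shares still carry the length slope of each library.

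Cspg4 encodes NG2, a membrane-spanning proteoglycan known as a marker of oligodendrocyte progenitors and of pericytes (chr9:56865033-56899870, plus strand, longest transcript 8121 nt). Wild type 1 to 4 held 2241, 2303, 2408 and 2392 normalised reads, within a narrow range, and knockout 1 to 4 held 1311, 1104, 1470.1 and 1769.9. The groups did not overlap, and knockout 2 was the lowest. Cspg4 fell from 2336 ± 78.4 to 1414 ± 281, 1.65-fold (log2 fold change -0.74 ± 0.129 (SE), 95% interval -1.02 to -0.47, FDR = 0.00405). It passed in all 8 fits that omit 1 library, with the length trend taken out (log2 fold change -0.53, FDR = 0.000121) and without the 4 steepest libraries (log2 fold change -0.57, FDR = 1.34e-05), but not with the slope as covariate (log2 fold change -0.39, FDR = 0.294).

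Markers of the cells that carry NG2 were read beside Cspg4. Of 8 oligodendrocyte progenitor markers, 3 rose and 5 did not pass, where 14.8% of all genes passed in each direction. Those that rose were Sox10, the transcription factor of the lineage, from 117 ± 10.4 to 288 ± 59.2 (log2 fold change 1.27, FDR = 0.000654), Bcas1 from 134 ± 11.7 to 316 ± 26.9 (log2 fold change 1.23, FDR = 0.000332) and Gpr17 from 171 ± 18.1 to 281 ± 43.9 (log2 fold change 0.70, FDR = 0.00718). Pdgfra, the growth factor receptor that is used beside NG2 to define these cells, was 714, 644, 653 and 493 across wild type 1 to 4 and 521, 476, 622 and 788 across knockout 1 to 4 and did not pass (log2 fold change -0.07, FDR = 0.774). The summed reads of the 8 markers, mostly from Olig1 and Olig2, were 50062 to 71118 and 62271 to 76738, overlapping. The mean of their log2 values, in which each marker counts alike, was 8.78 to 9.22 and 9.44 to 9.65, without overlap. Sox10, Bcas1 and Gpr17 also passed as higher with the slope as covariate (FDR = 0.0425, 0.0114 and 0.0391), where 0.656% of all genes did. Of 7 pericyte markers, 2 were measured, with sums of 41.6 to 74.6 and 43.0 to 67.4, and Pdgfrb was not analysed here.

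Cspg5 encodes neuroglycan C, a brain proteoglycan of the plasma membrane with a domain like that of epidermal growth factor (chr9:110243783-110262576, plus strand). Its normalised reads were 4689.6, 5112, 5682 and 5900.3 across wild type 1 to 4 and 7429, 6928, 6440.4 and 6684 across knockout 1 to 4, all of the second group above all of the first. Cspg5 rose from 5346 ± 549 to 6870.3 ± 422, 1.29-fold (log2 fold change 0.37 ± 0.102 (SE), 95% interval 0.15 to 0.59, FDR = 0.0199). With the length trend taken out the rise was 0.75 (FDR = 0.0151) by the longest transcript of 7868 nt and 0.44 (FDR = 0.00847) by the shorter median coding transcript. It did not pass with the slope as covariate (log2 fold change 0.16, FDR = 0.699), without the 4 steepest libraries (log2 fold change 0.18, FDR = 0.323) or without wild type 1, wild type 2 or knockout 1 (FDR = 0.0712, 0.0673 and 0.0693).

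The hyaluronan synthase genes had few reads in every library. For Has1 (chr17:17843323-17855205, minus strand), normalised reads were 6.87, 6.72, 3.38 and 12.6 across wild type 1 to 4 and 0.963, 0, 0 and 0.978 across knockout 1 to 4, with the groups apart. Summed over 4 libraries each, that was 30 reads against 2, so the level in the libraries labelled wild type was 15.4 times that in those labelled Phf23-/-, with a 95% exact interval of 3.91 to 133 that covers counting error only. Both this interval and the fitted log2 fold change of -2.47 (FDR = 0.00953) are descriptions only, since Has1 reached the table through the libraries labelled wild type. The fitted value depends on the added constant at such counts (-4.37 with 0.1 in place of 1), and the lowest gene total in the table was 11 reads.

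Has2, known as the main synthase of the embryo (chr15:56665627-56694539, minus strand), had 7.85, 25.0, 14.6 and 8.72 normalised reads across wild type 1 to 4 and 5.78, 7.37, 11.2 and 4.89 across knockout 1 to 4. The groups overlapped and the difference did not pass, as deposited or with the length trend taken out (log2 fold change -0.54, FDR = 0.390), from a mean of 14.0 ± 7.88 to one of 7.30 ± 2.77 (log2 fold change -0.78 ± 0.423 (SE), 95% interval -1.69 to 0.14, FDR = 0.184). The antisense transcript Has2os shares 182 exon bases with Has2 and had 5.89, 8.64, 3.38 and 1.94 normalised reads across wild type 1 to 4 and 2.89, 2.11, 0.930 and 0 across knockout 1 to 4, so that reads of the pair may not have been separated. Has3, which lies outside the 9 genes, fell from 44.1 ± 5.78 to 23.6 ± 9.30 (log2 fold change -0.94, FDR = 0.0270) and did not pass without any 1 of wild type 1 to 3 or knockout 1 or 2, nor with the length trend taken out (FDR = 0.0725).

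To set the levels of the genes beside each other, reads were divided by the length of all annotated exons and by depth (reads per kilobase, scaled to equal depth as in RPKM). In the libraries labelled wild type, Bcan (196 ± 34.3), Ncan (193 ± 7.47), Tnc (185 ± 14.5) and Ptprz1 (166 ± 25.9) formed a top group in which each gene overlapped the next. Cspg5 followed at 30.2 ± 3.34, then Vcan at 13.6 ± 2.33 and Cspg4 at 11.1 ± 0.460, which overlapped each other, while Has2 (0.189 ± 0.107) and Has1 (0.0931 ± 0.0489) were far below. In the libraries labelled Phf23-/- the order was Bcan (238 ± 11.9), Ncan (176 ± 32.4), Ptprz1 (105 ± 24.1) and Tnc (97.2 ± 16.1), and only Ptprz1 with Tnc, and Vcan (7.995 ± 2.15) with Cspg4 (6.48 ± 1.51), overlapped their neighbour in the order. The order depended on the length used. By longest transcript Ptprz1 led with 293 ± 45.8 in the libraries labelled wild type, ahead of Bcan with 253 ± 44.4, and in those labelled Phf23-/- Ptprz1 (186 ± 42.5) came above Ncan (176 ± 32.4) and overlapped it.

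Ratios within a library compare the genes with no scaling between libraries. Ncan was taken as the denominator after its values had been seen, since its longest transcript of 7195 nt and GC content of 55.1% are close to the 7106 nt and 52.5% of Tnc, and no test was made. The reads of Tnc per read of Ncan were 1.06, 1.08, 0.974 and 1.02 across wild type 1 to 4 and 0.636, 0.598, 0.580 and 0.588 across knockout 1 to 4. The groups did not overlap. The ratio of Cspg4 to Ncan was 0.0896 to 0.104 against 0.0548 to 0.0635, that of Ptprz1 1.37 to 1.97 against 1.10 to 1.25, and that of Vcan 0.114 to 0.168 against 0.0799 to 0.0984, each without overlap. Ptprz1 (8068 nt, GC content 44.5%) and Vcan (12427 nt, 43.7%) are less close to Ncan. Their ratios may still carry the length and GC trend, and neither gene passed with the trend on longest transcripts taken out (FDR = 0.183 and 0.147). The ratios of Bcan (0.479 to 0.680 and 0.633 to 0.883) and of Cspg5 (0.188 to 0.247 and 0.240 to 0.356) overlapped.

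**Figure D3:**
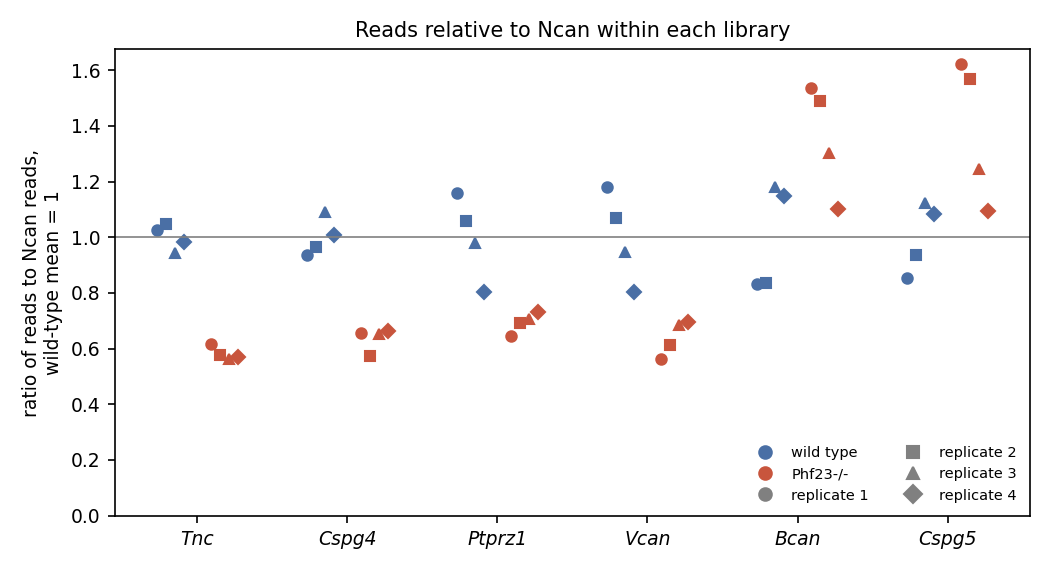
Reads of 6 genes divided by reads of Ncan in the same library (y axis, with the mean of the libraries labelled wild type set to 1), by gene on the x axis; each point is 1 library, with marker shape for the replicate number. Tnc, Cspg4, Ptprz1 and Vcan do not overlap between the labels, and the Tnc ratio falls from 1.03 ± 0.0475 to 0.600 ± 0.0252 before scaling. Ptprz1 and Vcan are further from Ncan than Tnc is in length and GC content.

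The fits with and without treatment of transcript length sort the genes. Tnc passed in each of the 5 fits drawn, Cspg4 in 4 of 5, Cspg5 in 3 of 5, Vcan in 2 of 5 and Bcan and Ptprz1 in 1 of 5. With the trend on the median coding transcript, the setting added after the data were seen, 21.7% of all genes passed. Ncan and Has2 passed in none of the 5 fits, nor at an unadjusted p under 0.05 as deposited.

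**Figure D4:**
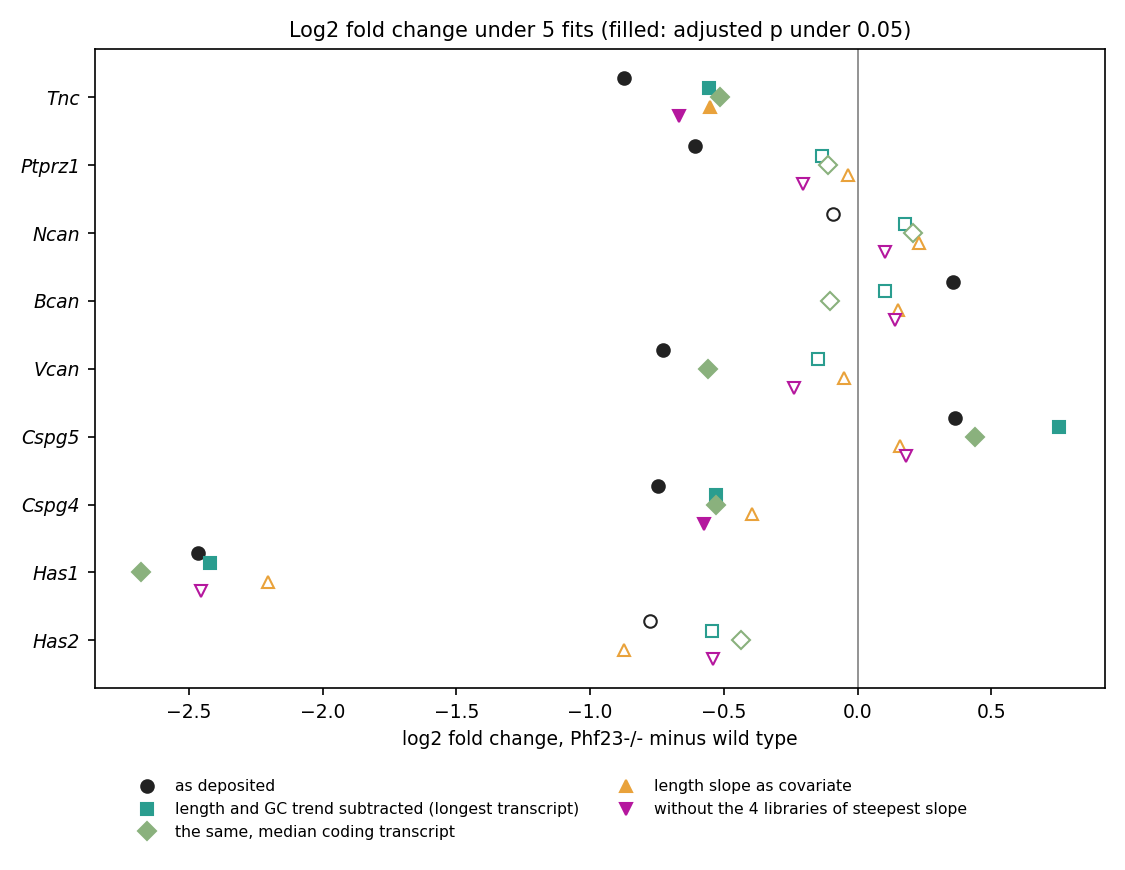
Log2 fold change (x axis, libraries labelled Phf23-/- minus wild type) of the 9 genes (y axis) under 5 fits, by marker shape; filled markers have an adjusted p under 0.05. The Tnc markers are all filled and lie between -0.87 and -0.52, while the Ncan markers fall on both sides of 0 and are all open.

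The lecticans Vcan, Bcan and Ncan stand next to link protein genes in the genome, with no coding gene between. Vcan lies 43659 bp from Hapln1 on chromosome 13 (chr13:89539796-89611652, plus strand), Bcan lies 21519 bp from Hapln2 on chromosome 3, and Ncan lies 2222 bp from Hapln4 on chromosome 8. Hapln4 had 208, 221, 234 and 262 normalised reads across wild type 1 to 4 and 169, 241, 207 and 193 across knockout 1 to 4, overlapping (log2 fold change -0.20, FDR = 0.313). Hapln2 was at a mean of 2.98 and 2.38 and did not pass (FDR = 0.915). The fourth such pair, Acan and Hapln3, was low too, with Acan at 5.02 and 5.11 (FDR = 0.965) and Hapln3 at 28.0 and 25.9 (FDR = 0.919).

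Other genes of the matrix pathway were read from 11 lists by role, in which 141 of 147 genes were measured. Of these, 14 were higher and 48 lower in the libraries labelled Phf23-/-, where 14.8% of all genes passed as higher and 14.8% as lower, with a median log2 fold change of -0.25. After the length trend was taken out, 13 were higher and 29 lower, against 10.4% and 7.79% of all genes, with a median of -0.07. The same shares of all genes are the background for each list below. Of the 31 genes of these lists named here and in the closing section that passed, 22 passed in all 8 fits that omit 1 library. The other 9 were Has3, Cd44, Hmmr, Ptprd, Chpf, Chsy3, Chst3, Chst11 and Galns. With the slope as covariate, 3 of the 141 genes were higher and 1 lower, against 0.656% and 0.438% of all genes. Of the genes of these lists that are named, only Rtn4rl1, Timp4 and Hs3st3b1 passed that fit. Without the 4 libraries of steepest slope, 9 of the 141 were higher and 24 lower, against 4.61% and 4.54% of all genes.

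Among 8 other tenascin, lectican, link protein and synthase genes, 2 fell, Tnr and Has3, and 6 did not pass (median log2 fold change of the list -0.12). Of all genes, 14.8% passed as lower and 29.6% in either direction. Tnr encodes tenascin R, a brain tenascin that binds lecticans, and fell from 1231 ± 258 to 595 ± 158 (log2 fold change -1.06, FDR = 0.00435), also with the length trend taken out (log2 fold change -0.52, FDR = 0.00268). Its values were 1524, 1354, 1101 and 945 across wild type 1 to 4 and 439.9, 533, 595 and 812 across knockout 1 to 4, without overlap. Tnxb had means of 10.02 and 4.68 and did not pass (log2 fold change -1.24, FDR = 0.170).

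Of 12 measured binding partners of tenascin C and Ptprz1, 7 fell and 5 did not pass, with a list median of -0.45, where 14.8% of all genes passed as lower. The 3 with the smallest adjusted p were Itga8, an integrin subunit that binds tenascin C, from 226 ± 32.6 to 125 ± 11.97 (log2 fold change -0.83, FDR = 0.00426), Cntn1, the contactin that binds Ptprz1, from 3089.9 ± 371 to 2095 ± 222 (log2 fold change -0.56, FDR = 0.00684), and Nfasc, neurofascin, from 716 ± 54.7 to 506 ± 48.2 (log2 fold change -0.50, FDR = 0.00897). With the length trend taken out 2 of the 12 fell, against 7.79% of all genes: Itga8 (log2 fold change -0.51) and Cntn1 (-0.23), while Nfasc did not pass (-0.11, FDR = 0.513). Ptn, which encodes the Ptprz1 ligand pleiotrophin, was at 23977 and 27844 and did not pass (FDR = 0.159).

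For hyaluronan receptors and turnover, 1 of 11 genes rose and 2 fell (list median -0.39), or 27.3% called, near the 29.6% of all genes. Hyal2, a hyaluronidase, rose from 748 ± 136 to 1144 ± 147 (log2 fold change 0.62, FDR = 0.00988), and the receptor genes Cd44, from 1395 ± 199 to 1039.8 ± 21.0, and Hmmr, from 2605 ± 526 to 1821 ± 309.7, fell (FDR = 0.0177 and 0.0326). Neither receptor gene passed with the length trend taken out (Cd44 -0.10, FDR = 0.395, and Hmmr -0.34, FDR = 0.0780), and the groups of Hmmr overlapped. Of 6 chondroitin sulphate receptor genes, with a list median of 0.30, 1 rose and 1 fell, or 33.3% called, near the 29.6% of all genes. Rtn4rl1, a Nogo receptor family member, rose from 339.7 ± 14.6 to 596 ± 39.3 (log2 fold change 0.81, FDR = 0.000835) and passed under all 22 other settings and left-out libraries. Ptprd, a receptor phosphatase, fell from 386 ± 57.7 to 266 ± 62.1 (log2 fold change -0.55, FDR = 0.0300), with overlapping groups and no call with the length trend taken out (log2 fold change -0.01, FDR = 0.960). Rtn4r was at 34.0 and 53.6 without passing (FDR = 0.0937).

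The enzymes that make the chains moved in both directions. In the list for the linkage sugars and the sulphate donor, 3 of 13 genes rose and 5 fell (list median 0.08), where 14.8% of all genes passed in each direction. Slc26a2, a sulphate transporter, fell from 355 ± 29.6 to 184 ± 32.6 (log2 fold change -0.95, FDR = 0.00231), and Xylt1, the xylosyltransferase that starts the chain, from 6902 ± 469.8 to 4244 ± 1016 (log2 fold change -0.73, FDR = 0.00669). B3gat3, which completes the linkage region, rose from 789.8 ± 152 to 1235 ± 189 (log2 fold change 0.65, FDR = 0.0106). With the length trend taken out 3 of these 13 passed, each lower, against 7.79% of all genes, and B3gat3 did not (0.08, FDR = 0.430). Of 6 chain polymerising genes (list median -0.16), Chpf rose from 1680.2 ± 429 to 2554 ± 238 (log2 fold change 0.64, FDR = 0.0137), while Csgalnact2, from 338 ± 43.8 to 229 ± 14.7, and Chsy3, from 88.6 ± 7.12 to 60.1 ± 12.4, fell (FDR = 0.0109 and 0.0367). In the fit without the length trend Chpf passed (FDR = 0.0141) and the other 2 did not (Csgalnact2 -0.19, FDR = 0.221, and Chsy3 -0.42, FDR = 0.0916).

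Of 11 genes for chondroitin and dermatan sulphation and its removal, 2 rose and 4 fell (list median -0.20), where 14.8% of all genes passed in each direction. After the trend was taken out 2 passed, Chst3 and Chst14, both lower, against 7.79% of all genes. Chst14 was named after its values were seen and had not passed as deposited (log2 fold change -0.38, FDR = 0.101). Chst3, a 6-O-sulphotransferase, fell from 548 ± 19.8 to 375 ± 83.6 (log2 fold change -0.57, FDR = 0.0149), and Chst11, a 4-O-sulphotransferase, from 5337 ± 256 to 3967 ± 610.4 (log2 fold change -0.44, FDR = 0.0163). Galns, a lysosomal sulphatase, rose from 196 ± 25.9 to 275 ± 19.8 (log2 fold change 0.49, FDR = 0.0177). Neither Chst11 (FDR = 0.0625) nor Galns (FDR = 0.131) passed with the length trend taken out.

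Of 16 matrix protease and inhibitor genes, 2 rose and 8 fell (list median -0.41), where 14.8% of all genes passed in each direction. Once the trend was taken out 1 rose and 5 fell, against 10.4% and 7.79% of all genes. Adamts4 encodes a protease that cleaves lecticans. It had 995, 1050.2, 824 and 945 normalised reads across wild type 1 to 4 and 399.5, 233, 456 and 568 across knockout 1 to 4, without overlap, and fell from 953 ± 96.7 to 414 ± 139.9 (log2 fold change -1.27, FDR = 0.00365). Mmp16, a membrane-type metalloproteinase, fell from 299.9 ± 41.0 to 102 ± 47.4 (log2 fold change -1.66, FDR = 0.00282). The inhibitor gene Timp4 rose from 1040.3 ± 65.9 to 2056 ± 346 (log2 fold change 0.97, FDR = 0.000811) and passed under all 22 other settings and left-out libraries, whereas Adamts4 and Mmp16 did not pass with the slope as covariate (FDR = 0.406 and 0.333).

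**Figure D5:**
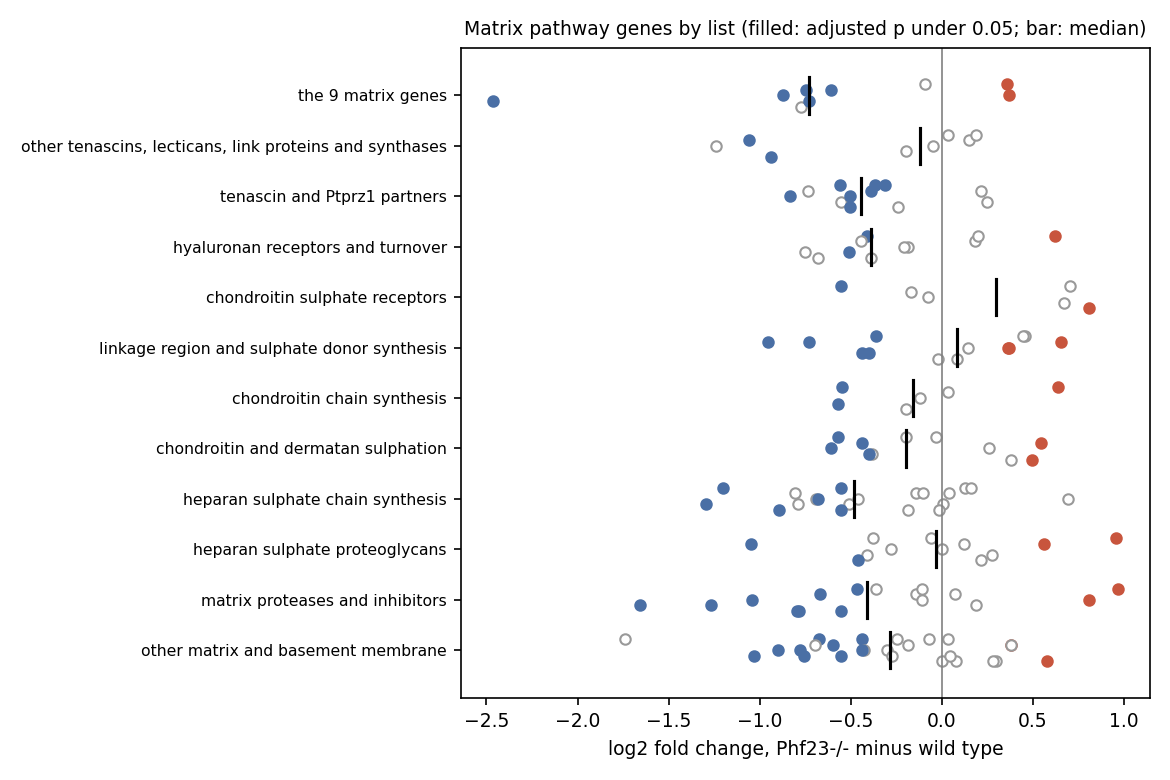
Log2 fold change (x axis, libraries labelled Phf23-/- minus wild type) of the 9 matrix genes and of 11 lists of other matrix pathway genes (y axis); each point is 1 gene, filled where the adjusted p is under 0.05, and the bar is the list's median. Partners of tenascin C and Ptprz1 hold 7 filled points, all left of 0, and the chain synthesis lists hold points on both sides.

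The libraries carried the defining genes of neural stem cells, among them Nes (mean 18905 and 17652), Sox2 and Fabp7. The summed reads of 10 such markers, mostly from Vim and Fabp7, were 142983 to 151254 and 162499 to 201260. Of the 10, 2 passed as higher, Fabp7 and Msi1, and 8 did not pass, where 14.8% of all genes passed in each direction. The same shares of all genes are the background for the markers below. Astrocyte marker sums, mostly from Slc1a2 and Aldh1l1, were 9354 to 10595 and 7429.95 to 8673. Of the 6 genes, 2 were higher, Gfap and S100b, and 3 lower, Aqp4, Aldh1l1 and Slc1a2. The mean of the log2 values of the 6 genes was 9.57 to 9.73 and 9.52 to 9.62, overlapping. Neuron marker sums, mostly from Map2, were 15606 to 20958 and 9560.3 to 12459.5, with 1 of 8 genes higher and 1 lower. Meningeal fibroblast sums, mostly from Foxc1, were 193 to 298 and 449 to 481 with 4 of 7 markers measured, endothelial sums 36.0 to 73.9 and 67.4 to 89.0 with 4 of 6, and of 8 microglia and blood markers only P2ry12 was measured. The part of these markers in the matrix gene results was not tested.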

How the data were processed

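The deposited signal values were gene counts that the authors had divided by 1 size factor per library, as the values show. Whole reads were recovered for 100% of values at a tolerance of 0.0001 reads, and size factors ran from 0.889 to 1.07. The submitters' processing notes name DESeq2 1.38.3, STAR 2.7.1a, fastp 0.23.4 and FastQC 0.12.1, and the build mm10. Per the labels' protocols, polyadenylated RNA from TRIzol lysates was made into libraries with a NEBNext Ultra kit. Which counter, annotation, strand setting and filters were used is not given in the sources used here, so reads of overlapping genes may be mixed. The lowest gene total was 11 reads, so genes with fewer were absent from the table.

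Of 15602 rows, 64 repeats were dropped. Identifiers were matched to GENCODE M21 (symbols for 15535 genes). The test was limma-trend (limma 3.58.1, R 4.3.3), robust, two-sided, of deposited log2(value + 1) against genotype alone, Benjamini-Hochberg adjusted over 15538 genes. A gene was called at FDR under 0.05. On this log2(value + 1) scale the change of a gene with few reads is understated. Length was that of the longest annotated transcript, and the trend was a loess of span 0.3 on length and GC content. Alternatives included edgeR 4.0.16 and DESeq2 1.42.0 on recovered reads. No 2 libraries agreed within sampling noise.

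The members, the lists and the tests were chosen with earlier results of these data known. Genes named were the members, up to 3 genes of each other pathway list with the smallest FDR, the 5 nearest to Tnc, neighbouring genes of the lists and Phf23. Marker genes, Chst14 and Ptn were named outside this rule, after their values were seen.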

Additional observations from a re-analysis of the deposited data

Results flagged for a closer look

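In 106 groups of 4 values, 4 had 1 library standing apart from the other 3 by Dixon's test at the 95% level, and chance gives about 1 in 20. Ncan was lowest in wild type 3, at 23040.5 normalised reads, while the other libraries labelled wild type held 24787 to 24999.6. The sulphate transporter gene Slc26a2 was highest in wild type 1, at 398 normalised reads against 334 to 345 in wild type 2 to 4. Wild type 3 had the fewest reads, 15647304. The summed astrocyte markers stood apart in knockout 4, at 8673 against 7429.95 to 7567.6 in knockout 1 to 3. No explanation was tested for these values.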

How the results depend on the processing

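Over all genes, 2301 were called higher and 2292 lower; with the length slope as covariate these were 102 and 68, with the length and GC trend subtracted the lower calls were 1211, and without the 4 steepest libraries they were 717 and 705. Replicate numbers did not pair the libraries: deviations of same-numbered libraries correlated at -0.33, -0.13, -0.19 and -0.28. With the replicate number as a block 151 were higher and 182 lower, and with the replicate block and the trend 835 and 598. Leaving out 1 library gave 948 to 2919 higher, from without knockout 1 to without knockout 4, and 936 to 2942 lower; without wild type 1 there were 1102 and 1087, and without wild type 2 1053 of each. Of the 9 matrix genes, Has1 included, 2 were called higher; this was 1 with edgeR on DESeq2 size factors, edgeR without a filter, library size only, and the trend by either length, and 0 with the covariate, the replicate block with and without the trend, and without the 4 steepest libraries. The 5 called lower were 3 with the trend on longest transcripts and 4 with the trend on median coding length. They were 1 with the covariate, 2 with the replicate block, 3 with the block and trend, and 2 without the 4 steepest libraries. Leaving out 1 library gave 0 to 2 higher and 4 to 5 lower. With Has1 set aside, the lower calls were 4 as deposited, 2 with the trend on longest transcripts, 1 with the covariate and 2 without the 4 steepest libraries. Bcan turned to -0.10 with the trend on median coding length. Ncan turned to 0.18 with the trend, 0.21 on median coding length, 0.23 with the covariate, 0.18 with the replicate block and trend and 0.10 without the 4 steepest libraries. With the covariate Ptprd turned to 0.10 and Rtn4r to -0.12. The cause was not tested. Scaling by library size alone moved the median of all genes by -0.06 and gave 1827 higher and 2757 lower calls. Of all other values compared, 774 kept direction and side of the threshold, 161 no longer passed and 1 newly passed. Has1 and Has2 have no value with filtered edgeR or voom, nor Has1 with a minimum mean of 10. Their depth, under 26 normalised reads in each library, limits precision.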

Other observations

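Heparan sulphate is the other main sulphated sugar chain of brain matrix. Of 20 genes for its synthesis, 6 fell in the libraries labelled Phf23-/- and 14 did not pass, with a median log2 fold change of -0.48. The share called in either direction is near the 29.6% of all genes. All 6 calls were lower, where 14.8% of all genes passed as lower. With the length trend taken out 6 fell and 2 rose, against 7.79% and 10.4% of all genes. Hs3st3b1, a 3-O-sulphotransferase, fell from 445 ± 42.4 to 239 ± 22.2 (log2 fold change -0.90, FDR = 0.00110), also with the slope as covariate (FDR = 0.0491). Sulf1, a sulphatase of heparan sulphate at the cell surface, fell from 94.9 ± 13.1 to 37.9 ± 3.18 (log2 fold change -1.30, FDR = 0.00134), and Glce, an epimerase of the chain, from 759 ± 28.1 to 518 ± 48.3 (log2 fold change -0.55, FDR = 0.00552). Neither Sulf1 (FDR = 0.112) nor Glce (FDR = 0.267) passed with the slope as covariate. Of 12 core protein genes, 2 rose and 2 fell (list median -0.03), or 33.3% called, near the 29.6% of all genes. Sdc4 rose from 1138 ± 47.8 to 1689.6 ± 228 and Gpc5 from 32.3 ± 7.88 to 62.6 ± 10.4, and Sdc2 fell from 1103 ± 133 to 797 ± 16.9 (FDR = 0.00600, 0.0126 and 0.0107).

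Of 26 other matrix and basement membrane genes, 2 rose and 9 fell (list median -0.29), where 14.8% of all genes passed in each direction. With the length trend taken out 5 rose and 8 fell, against 10.4% and 7.79% of all genes. Both main collagen IV chains fell, Col4a1 from 579.7 ± 42.3 to 315 ± 73.1 (log2 fold change -0.90, FDR = 0.00320) and Col4a2 from 187 ± 18.8 to 111 ± 16.0 (log2 fold change -0.75, FDR = 0.00658). Sparc, a collagen-binding matrix protein, rose from 7560.3 ± 231 to 11314 ± 1339 (log2 fold change 0.57, FDR = 0.00459). The collagen IV genes and Sparc did not pass with the slope as covariate (FDR = 0.287, 0.194 and 0.1495).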
